A study of Homo sapiens with 8 samples.

Results

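Antisense long noncoding RNAs (lncRNAs) are named after the coding gene they lie opposite to, as in PSMG3-AS1 and PSMG3. The genes described here were chosen by 3 criteria, namely the type lncRNA in GENCODE v44, a symbol that ends in -AS and a digit, and at least 160 raw counts summed over all 8 libraries. Of 60725 genes in the count table, 1800 had such a symbol, 1312 of these had at least 1 read, and 357 passed the count threshold. Just outside it lay SCOC-AS1 and PROX1-AS1 with 157 and 158 counts, and just inside it TMCO1-AS1 and TRABD-AS1 with 160 counts each. For 348 of the 357 a coding gene with the name before -AS was present, here called the partner (346 different genes, since 4 antisense lncRNAs share a partner with another). The other 9 are GAS5-AS1, HOXA-AS2, HOXA-AS3, HOXB-AS1, HOXC-AS2, HOXD-AS2, PRR34-AS1, ST20-AS1 and ZNF252P-AS1. All 357 antisense lncRNAs and 331 of the 346 partners had enough reads to be tested.

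As background, antisense lncRNAs are transcribed from the strand opposite to a coding gene. Many start close to the coding promoter and run away from it, others lie inside the gene or meet it at its 3′ end. Such transcripts are often short-lived and are removed by the nuclear exosome. NELF (negative elongation factor) is a complex that, together with DSIF, holds RNA polymerase II in a paused state shortly after it has left the promoter.

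The cells were HAP1, a near-haploid human line, in a monoclonal derivative with a stably expressed dCas9-BFP-KRAB fusion, an inactive Cas9 that silences the promoter to which a guide RNA brings it. They were transduced with a guide RNA against NELFE (3 libraries), NELFB (2 libraries) or, as control, ADAM22 (3 libraries), and polyadenylated RNA was collected after 144 h. All groups therefore carried the same fusion protein, and all cells came from 1 clone. The deposited values were raw read counts per gene, between 22037423 and 24444185 per library.

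The labels were borne out by the targeted genes. NELFE measured 49.3 ± 1.24 CPM (n = 3) in controls and 2.58 ± 0.341 CPM (n = 3) in the NELFE knockdown. NELFB measured 75.4 ± 3.32 CPM (n = 3) in controls and 2.92 ± 0.207 CPM (n = 2) in the NELFB knockdown. Values with ± are means with the SD over n libraries, and CPM stands for TMM-normalized counts scaled to a common library size. ADAM22, which the control guide RNA targets, measured 12.6 ± 1.25 CPM in control cells and 39.2 ± 8.81 and 38.3 ± 3.89 CPM in the NELFE and NELFB knockdowns. Of the markers of HAP1 cells, VIM, BCR, ABL1, TERT and LIN28B were all detected. With both knockdowns combined against control, ABL1 was higher (log2 fold change 1.05), and TERT (-1.75) and LIN28B (-0.54) were lower. Each passed an edgeR adjusted p under 0.05, while VIM (0.0069) and BCR (0.30) did not. The blood cell markers PTPRC, SPN and CD33 stayed at or below 0.222 CPM in every library. CD34, another blood marker, measured 0.0990 ± 0.0482 CPM in control cells, 0.742 ± 0.527 CPM in the NELFE knockdown and 1.84 ± 1.33 CPM in the NELFB knockdown.

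Some libraries stood apart from their replicates. Control replicate 1 differed from control replicates 2 and 3 with a chi-square of 17.1 and 29.4 per gene, while replicates 2 and 3 differed with 5.76. Relative to the mean of the controls, the median antisense lncRNA was 0.13 higher on the log2 scale in control replicate 1, and 0.05 and 0.07 lower in the other two. On the same scale it was 0.14, 0.16 and 0.07 higher in NELFE replicates 1 to 3 and 0.19 and 0.21 higher in the NELFB replicates, so that control replicate 1 lay within the range of the knockdown libraries. Mitochondrial genes took 4.62% of the counts in control replicate 1, 3.72% and 3.48% in control replicates 2 and 3, and between 4.26% and 5.01% in the knockdown libraries. NELFE replicate 3 differed from NELFE replicates 1 and 2 with a chi-square of 21.1 and 21.4 per gene, against 4.25 between NELFE replicates 1 and 2. Counts of changed genes are therefore also given without these libraries. The part of mitochondrial RNA in the results was not tested.

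Most antisense lncRNAs were weakly expressed. Their mean level in control cells ranged from 0.301 to 297 CPM with a median of 2.71 CPM, compared to a median of 41.2 CPM for the partners. Per kilobase of annotated exons, the medians were 0.883 and 6.18 CPM, and 66 antisense lncRNAs exceeded their partner on this scale. Their annotated exons summed to a median of 3387 bases.

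The position relative to the partner varied. In 104 pairs the gene starts lay within 1000 bases on opposite strands (head-to-head), and in 78 further pairs the genes overlapped at their 5′ ends with starts further apart. In 98 pairs one gene lay within the other (embedded), and in 64 the genes overlapped at their 3′ ends (tail-to-tail). The remaining pairs were 3 that lay near each other without overlap and 1 on the same strand, FAM131B-AS2. Positions are those of GRCh38 in GENCODE v44. The kit used does not mark the strand and the reads were counted without it. Reads over exons of both genes were thus counted for neither, and reads from an intron of the partner that cover an exon of the antisense lncRNA cannot be told apart from its own. This concerns most pairs, because 299 of the 357 had exon bases shared with exons of another gene, and only 18 had no exon base inside another gene.

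The first question was how these RNAs responded to the loss of NELF. When both knockdowns were combined (5 libraries) and compared to the control (3 libraries), 77 of the 357 antisense lncRNAs were upregulated and 20 downregulated (edgeR quasi-likelihood test, Benjamini-Hochberg adjusted p under 0.05 over all genes). Among all 16367 genes tested, 13.3% were upregulated and 12.7% downregulated, compared to 21.6% and 5.60% of the antisense lncRNAs. This comparison was not matched for expression level. Of the 119 antisense lncRNAs with the lowest control CPM, 23.5% were upregulated and 0.840% downregulated. The middle 119 gave 21.0% and 7.56%, and the highest 119 gave 20.2% and 8.40%. The median log2 fold change of the antisense lncRNAs was 0.15, while that of all genes was -0.00 and that of the partners 0.04. This median depended on single control libraries, since it was 0.25 without control replicate 1, 0.12 without control replicate 2, 0.10 without control replicate 3, and 0.26 without both control replicate 1 and NELFE replicate 3. Of the upregulated antisense lncRNAs 27, and of the downregulated 2, changed more than 2-fold, compared to 643 and 128 of all genes tested. In 97 of the 357 all knockdown libraries were higher than all control libraries and in 31 all were lower, against 14.7% and 14.0% of all genes tested; for the antisense lncRNAs these are 27.2% and 8.68%.

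The NELFE knockdown alone gave 48 upregulated and 8 downregulated antisense lncRNAs (13.4% and 2.24%, compared to 7.92% and 7.04% of all genes). The NELFB knockdown alone gave 65 and 12 (18.2% and 3.36%, compared to 10.6% and 8.88% of all genes). Both comparisons use the same control libraries. These counts depended on single libraries, as did the share of all genes. The NELFE count was 25 up and 1 down without NELFE replicate 1, and the same without NELFE replicate 2 (3.35% up and 2.56% down, and 3.86% and 2.69%, of all genes), and 26 up and 3 down without control replicate 2 (3.92% and 3.28%). The NELFB count was 15 up and 2 down without NELFB replicate 1 (2.17% and 1.27% of all genes), 28 and 4 without NELFB replicate 2 (4.396% and 2.81%), and 41 and 7 without control replicate 2 (6.46% and 4.79%). Without both libraries that stood apart, the counts were higher, with 92 up and 15 down for NELFE (17.6% and 18.4% of all genes) and 124 up and 22 down for NELFB (21.1% and 20.4%). The combined count was 85 up and 12 down without control replicate 1, 82 up and 22 down without NELFE replicate 3, and 118 up and 18 down without both. The shares of all genes called up and down moved as well, to 12.8% and 12.6%, 15.5% and 15.9%, and 19.8% and 20.2% in these settings. The lowest count of upregulated antisense lncRNAs, 47, was obtained without control replicate 2, where 8.09% of all genes were upregulated.

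The threshold on summed counts admits a gene with few control reads if it is high in the knockdowns, so an increase of such a gene is partly fixed by the choice. Of the antisense lncRNAs named further on, BCAN-AS1, ZFHX4-AS1, TMEM220-AS1, TEDC2-AS1, RFX5-AS1 and DLGAP1-AS1 had fewer than 60 reads over the control libraries. Among the 329 antisense lncRNAs with at least 60 counts in the control libraries, 62 were upregulated and 20 downregulated (18.8% and 6.08%, compared to 12.6% and 14.4% of all genes with as many control counts), with 16 and 2 changed more than 2-fold (291 and 107 of all 14178 such genes). These 329 still had to reach 160 summed counts. When antisense lncRNAs were chosen by at least 60 control counts alone, 62 were upregulated and 24 downregulated. The background for that choice is the same 12.6% and 14.4% of all genes. The size of that set is not given here, so its counts cannot be read as shares. Among the 18 without an exon base inside another gene, 5 were upregulated and 2 downregulated (27.8% and 11.1%, compared to 13.3% and 12.7% of all genes), so that the low share of downregulated genes was not seen in this small subset.

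**Figure D1:**
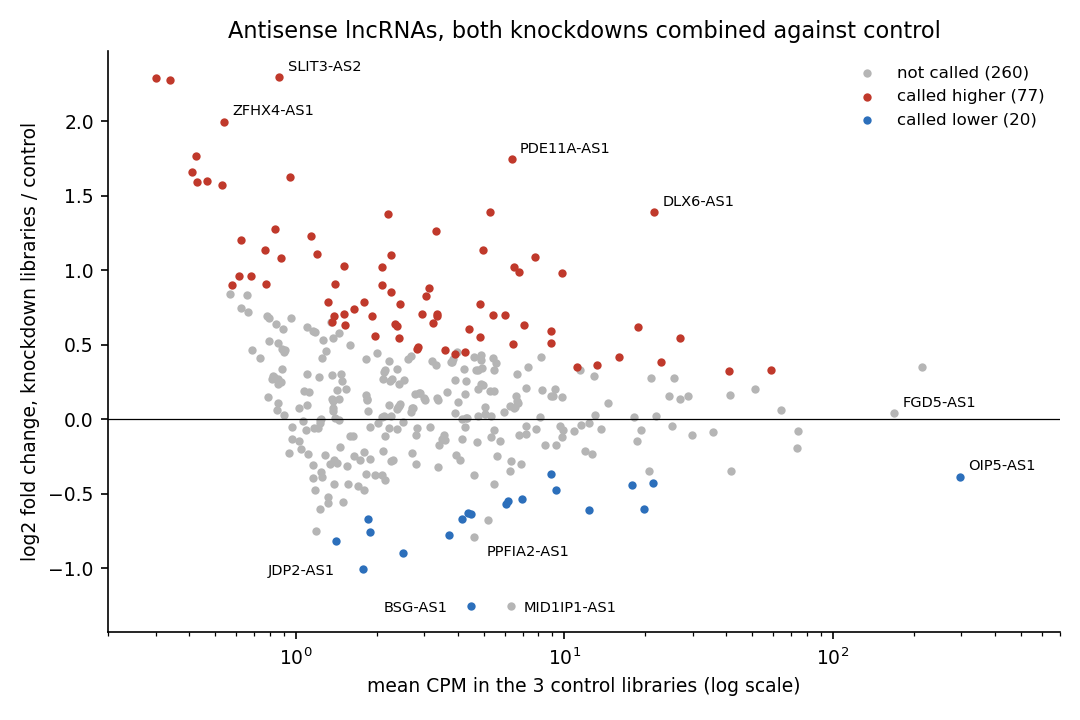
Each point is 1 of the 357 antisense lncRNAs, with its mean CPM in the 3 control libraries on a log axis and its log2 fold change in the 5 knockdown libraries relative to control. Red points (77) were upregulated, blue points (20) downregulated and grey points (260) not called; increases reach 2.29, and RNAs with few control reads were admitted by the count threshold only when high in the knockdowns.

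The largest increase was that of SLIT3-AS2 (chromosome 5, 168706567 to 168720884, plus strand), which lies inside the gene of SLIT3, a secreted guidance ligand of ROBO receptors. It measured 1.32, 0.753 and 0.525 CPM in the control libraries, 5.78, 5.89 and 2.42 CPM in the NELFE knockdown, and 3.78 and 3.63 CPM in the NELFB knockdown. The knockdown libraries were all above the control libraries (log2 fold change 2.29, SE 0.36, edgeR adjusted p = 0.00149). SLIT3 itself was upregulated as well (1.60, SE 0.43, adjusted p = 0.0275), although NELFE replicate 3 with 7.40 CPM lay within the range of the controls (3.68 to 8.57 CPM), and all exon bases of SLIT3-AS2 lie within it.

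BCAN-AS1 (chromosome 1, 156637783 to 156641004, minus strand) starts head-to-head with BCAN, which encodes the brain proteoglycan brevican. Its level was 0.400, 0.355 and 0.263 CPM in control cells, 2.12, 1.51 and 1.02 CPM in the NELFE knockdown, and 2.45 and 1.20 CPM in the NELFB knockdown. All knockdown libraries exceeded the controls (2.27, SE 0.37, adjusted p = 0.00165), whereas BCAN, with 0.764 ± 0.473 CPM (n = 3) in controls, was not called (0.09, SE 0.38, adjusted p = 0.887). ZFHX4-AS1, which overlaps the 5′ end of the homeobox gene ZFHX4, measured 0.538 ± 0.0879 CPM (n = 3) in controls, 2.09 ± 0.163 CPM (n = 3) in the NELFE knockdown and 2.27 ± 0.107 CPM (n = 2) in the NELFB knockdown. It rose by 2.00 on the log2 scale (SE 0.21, edgeR adjusted p = 0.000158), with all 5 knockdown libraries above the controls. ZFHX4 was not called (0.04, SE 0.07, adjusted p = 0.709). Having fewer than 60 control reads, BCAN-AS1 and ZFHX4-AS1, like TMEM220-AS1 and TEDC2-AS1, passed the count threshold through the knockdown libraries.

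TMEM220-AS1 measured 0.422 ± 0.150 CPM (n = 3) in controls and 1.34 ± 0.399 CPM (n = 3) and 1.62 ± 0.353 CPM (n = 2) in the NELFE and NELFB knockdowns. The increase was 1.76 on the log2 scale (SE 0.32, edgeR adjusted p = 0.00287), and TMEM220 at its 5′ end was not called (0.12, adjusted p = 0.417). PDE11A-AS1 was more abundant than these. It lies within PDE11A, a cyclic nucleotide phosphodiesterase gene, and measured 5.97, 7.98 and 5.12 CPM in the control libraries, 25.1, 27.1 and 13.4 CPM in the NELFE knockdown, and 21.9 and 18.6 CPM in the NELFB knockdown. The groups did not overlap (1.74, SE 0.23, edgeR adjusted p = 0.000681). PDE11A itself was upregulated as well, and the log2 ratio of PDE11A-AS1 to PDE11A changed by 0.53 only. In SLIT3-AS2, BCAN-AS1, TMEM220-AS1, PDE11A-AS1 and TEDC2-AS1, NELFE replicate 3 was the lowest of the knockdown libraries.

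Decreases were smaller. BSG-AS1 (chromosome 19, 562360 to 572228, minus strand) runs away from BSG, the gene of the membrane glycoprotein basigin. It measured 4.93, 4.25 and 4.25 CPM in the control libraries, 2.41, 1.63 and 2.09 CPM in the NELFE knockdown, and 1.41 and 1.84 CPM in the NELFB knockdown. All knockdown libraries were below the controls (-1.25, SE 0.18, edgeR adjusted p = 0.000918). BSG was far more abundant, between 544 and 586 CPM in the control libraries, and was not called (0.16, SE 0.07, adjusted p = 0.119).

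JDP2-AS1 measured 1.78 ± 0.267 CPM (n = 3) in controls, 0.869 ± 0.339 CPM (n = 3) in the NELFE knockdown and 0.924 ± 0.159 CPM (n = 2) in the NELFB knockdown (-1.001, SE 0.25, edgeR adjusted p = 0.0137). It starts head-to-head with JDP2, a bZIP repressor of AP-1 sites, which was also downregulated (-1.17, SE 0.17, adjusted p = 0.000857). ATP2A1-AS1, opposite a muscle calcium pump gene, was lowered by -0.90 (SE 0.21, edgeR adjusted p = 0.00940), and PXN-AS1, opposite the focal adhesion gene PXN, by -0.78 (SE 0.17, adjusted p = 0.00700), and neither partner was called. For ZNF516-AS1 (-0.82, SE 0.24, adjusted p = 0.0278), control replicate 1 was the highest library with 1.72 CPM, against 1.24 and 1.27 CPM in the other controls. Its call was held in 11 of 15 settings and was lost without control replicate 1 (-0.65), without NELFB replicate 1 (-0.72) or 2 (-0.74), and without both libraries that stood apart (-0.70).

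The arrangement of the pair was examined next. Of the head-to-head antisense lncRNAs 28 of 104 were upregulated and 4 downregulated, while 18 and 11 of their 104 partners were. The same numbers were 15 and 4 of 78 for overlapping 5′ ends, 21 and 9 of 98 for embedded, and 11 and 2 of 64 for tail-to-tail antisense lncRNAs. Their partners gave 14 and 7 of 77, 19 and 6 of 88, and 6 and 8 of 59. The shares upregulated among antisense lncRNAs and their partners were 26.9% and 17.3% for head-to-head, 19.2% and 18.2% for overlapping 5′ ends, 21.4% and 21.6% for embedded, and 17.2% and 10.2% for tail-to-tail pairs. In the same order, the shares downregulated were 3.85% and 10.6%, 5.13% and 9.09%, 9.18% and 6.82%, and 3.125% and 13.6%. Neither the differences between antisense lncRNAs and partners nor those between arrangements were tested. When the distance between the canonical start sites was used instead, 25 of 102 with starts within 500 bases were upregulated and 4 downregulated, compared to 24 and 9 of 130 with starts more than 10 kb apart. These are 24.5% and 3.92%, and 18.5% and 6.92%, while all genes gave 13.3% and 12.7%. This difference by distance was not tested either.

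Other lncRNA classes, chosen with the same count threshold, were counted for comparison. Of 179 lncRNAs with symbols ending in -DT, which are named for a divergent start next to a coding gene, 29 were upregulated and 10 downregulated (16.2% and 5.59%). Of 116 with symbols starting in LINC, which lie between genes, the counts were 28 and 6 (24.1% and 5.17%). All 965 lncRNAs other than the antisense ones gave 161 and 68 (16.7% and 7.05%), and protein-coding genes 13.6% and 14.6%. A surplus of upregulated over downregulated genes was thus also present in the other lncRNA classes.

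Promoter windows of 300 bases (RefSeq, GRCh38.p14, 250 bases before to 50 after the start) were found for 260 of the 357 antisense lncRNAs. Their median GC content was 65.7%, compared to 63.7% for the windows of the partners and 58.7% for all promoters. The letters GGGCGG, the core of the GC box, stood on either strand of 61.8% of the 319 antisense windows, 57.8% of the partners' windows and 45.0% of all 35116 windows. TATAAA stood in 5.33%, 7.10% and 11.5%, and CCAAT in 28.5%, 32.3% and 34.6%. The antisense windows thus lay closer to those of their partners than to all promoters. Part of this likeness may be built in, because windows of a pair can cover the same bases where the starts lie close together. In 102 pairs the canonical starts lay within 500 bases on opposite strands, and letters shared by both windows count for both genes. For the upregulated antisense lncRNAs, 61.4% of 57 windows held GGGCGG, 7.02% TATAAA and 17.5% CCAAT.

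The comparison with the partner was made pair by pair. In 21 pairs both genes were upregulated, in 4 both were downregulated, and in 6 the directions were opposite. Another 50 antisense lncRNAs were upregulated and 14 downregulated without a call for the partner. Conversely, 35 partners were upregulated and 24 downregulated while the antisense lncRNA was not called, and in 179 pairs neither was. The background for these counts is given by the partners themselves, of which 57 of 331 (17.2%) were upregulated and 33 (9.97%) downregulated.

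**Figure D2:**
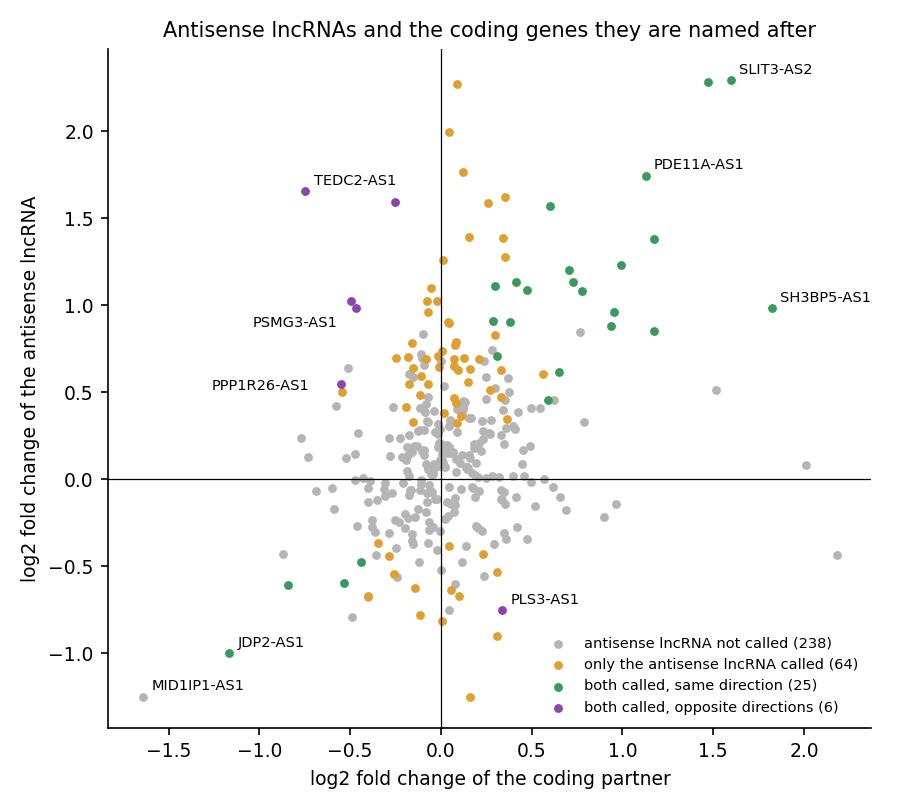
Each of 333 points is a pair, with the log2 fold change of the coding partner on the horizontal and of the antisense lncRNA on the vertical axis, both knockdowns combined against control. The 25 green pairs changed in the same direction and the 6 purple pairs in opposite directions; 64 pairs (yellow) had a call for the antisense lncRNA alone.

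The 6 opposite pairs were chosen for their calls, so their values are a description, given here for 4 of them. PSMG3, which encodes a chaperone of proteasome assembly, and PSMG3-AS1 (chromosome 7, 1570073 to 1589626, plus strand) have canonical starts 41 bases apart and point away from each other. PSMG3-AS1 measured 10.7, 10.4 and 8.23 CPM in the control libraries, 20.6, 22.2 and 14.5 CPM in the NELFE knockdown, and 19.6 CPM in each NELFB library. PSMG3 measured 42.3, 56.5 and 58.4 CPM in the controls, 37.3, 39.1 and 45.4 CPM in the NELFE knockdown, and 32.2 and 35.5 CPM in the NELFB knockdown. The antisense lncRNA rose (0.98, SE 0.15, edgeR adjusted p = 0.00101) without overlap between groups, and PSMG3 was lowered (-0.47, SE 0.12, adjusted p = 0.0170) with 1 control library inside the range of the knockdowns. The bases between these starts are shown because the starts lie so close together. The plus strand of GRCh38 is printed where no annotated exon covers it, with CG dinucleotides in capitals, for chr7:1570046-1570072.
PSMG3-AS1 and PSMG3: ccaCGCGggccCGcccCGtcCGCGggt
The GC content of this stretch is 88.9%.

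TEDC2-AS1 (chromosome 16, 2464950 to 2468213, minus strand) meets TEDC2, the gene of a tubulin complex subunit, at its 3′ end. It measured 0.441, 0.355 and 0.438 CPM in the control libraries, 1.45, 1.59 and 0.651 CPM in the NELFE knockdown, and 1.41 CPM in each NELFB library. TEDC2 measured 40.0, 33.0 and 36.6 CPM in the controls, 22.6, 21.2 and 22.8 CPM in the NELFE knockdown, and 18.4 and 23.8 CPM in the NELFB knockdown. Neither gene had overlapping groups, and the log2 fold changes were 1.66 (SE 0.32, edgeR adjusted p = 0.00405) and -0.75 (SE 0.10, edgeR adjusted p = 0.000513). TEDC2-AS1 had few control reads and passed the count threshold through the knockdown libraries. Its increase and the gap between its groups are therefore partly fixed by the choice. Only 0.429% of the exon bases of TEDC2-AS1 lie inside TEDC2.

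PPP1R26-AS1, at the 5′ end of a gene for a regulatory subunit of protein phosphatase 1, measured 4.83 ± 0.327 CPM (n = 3) in controls and 6.55 ± 0.384 CPM (n = 3) and 7.85 ± 0.522 CPM (n = 2) in the NELFE and NELFB knockdowns. It changed by 0.55 (SE 0.14, edgeR adjusted p = 0.0129) and PPP1R26 by -0.55 (SE 0.10, edgeR adjusted p = 0.00238); the former call was lost without control replicate 2 (0.53) or 3 (0.51).

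PLS3-AS1 went the other way. It overlaps the 5′ end of PLS3, the gene of the actin-bundling protein plastin 3, on chromosome X (115518182 to 115562731, minus strand). It measured 2.20, 1.64 and 1.84 CPM in the control libraries, 1.58, 1.12 and 0.791 CPM in the NELFE knockdown, and 1.29 and 0.812 CPM in the NELFB knockdown. PLS3 measured between 337 and 403 CPM in the controls and between 437 and 504 CPM in the knockdowns. The changes were -0.75 (SE 0.25, edgeR adjusted p = 0.0422) and 0.34 (SE 0.08, edgeR adjusted p = 0.0105). The call for PLS3-AS1 was held in 7 of 15 settings and was lost without any single library except NELFE replicate 1, with log2 fold changes between -0.63 and -0.85, and without both libraries that stood apart (-0.53).

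**Figure D3:**
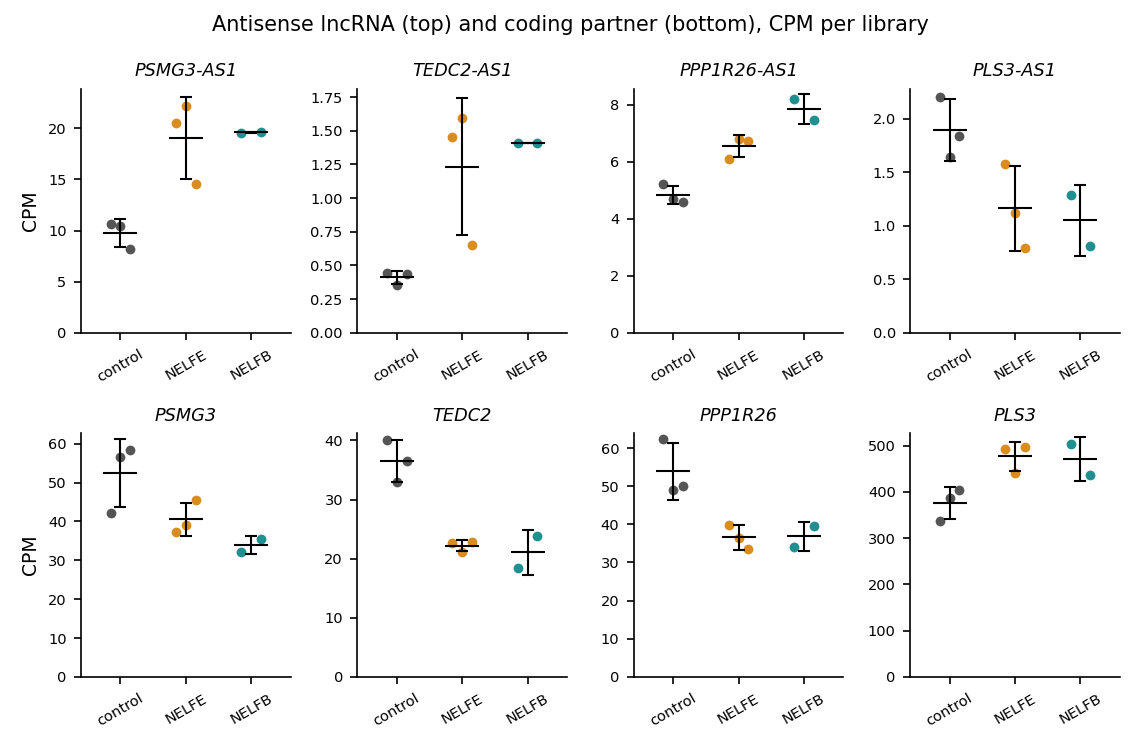
CPM per library (points), with the mean and SD as bars, for 4 antisense lncRNAs that changed in the opposite direction to their partner (top row) and for the partners (bottom row), in control (n = 3), NELFE (n = 3) and NELFB (n = 2) libraries. PSMG3-AS1 rose from 9.77 to 19.1 and 19.6 CPM, and the knockdown libraries of PLS3-AS1 lie below the controls.

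Over all 6 opposite pairs, between 0.429% and 11.2% of the exon bases of the antisense lncRNA lay inside the partner, with a median of 8.23%. In the 21 pairs upregulated together the median was 38.8%, and in 6 of them over 99% of the exon bases lay inside the partner, compared to a median of 28.5% over all 348 pairs and 75 with over 99%. Among these 21 pairs, 8 were embedded, 6 head-to-head, 3 overlapped at their 5′ ends and 4 were tail-to-tail.

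Among the pairs that changed together, SATB1-AS1 starts near SATB1, the gene of a chromatin organizer. It measured 5.69, 4.79 and 4.47 CPM in the control libraries, 10.8, 11.9 and 7.82 CPM in the NELFE knockdown, and 11.6 and 12.6 CPM in the NELFB knockdown. Knockdown libraries were all above controls for both genes, with log2 fold changes of 1.14 (SE 0.17, edgeR adjusted p = 0.000961) for SATB1-AS1 and 0.73 (SE 0.11, edgeR adjusted p = 0.000961) for SATB1. SOCS2-AS1 rose from 7.78 ± 1.28 CPM (n = 3) to 15.2 ± 2.19 CPM (n = 3) and 18.6 ± 1.16 CPM (n = 2) in the NELFE and NELFB knockdowns (1.09, SE 0.15, edgeR adjusted p = 0.000756). SOCS2, a feedback inhibitor of cytokine signalling, changed by 0.48 (SE 0.08, adjusted p = 0.00147).

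RFX5-AS1 rose from 0.624 ± 0.129 CPM (n = 3) to 1.31 ± 0.0930 CPM (n = 3) and 1.64 ± 0.0256 CPM (n = 2), and RFX5, a transcription factor of MHC class II genes, changed by 0.70 (SE 0.10, edgeR adjusted p = 0.000961). RFX5-AS1 had few control reads, so its increase is partly fixed by the count threshold. TSC22D1-AS1 changed by 1.11 (SE 0.19, edgeR adjusted p = 0.00199) and TSC22D1, a leucine zipper gene, by 0.30 (SE 0.06, adjusted p = 0.00458). In the pair of SH3BP5-AS1 the partner changed more. SH3BP5-AS1 measured 6.80 ± 0.920 CPM (n = 3) in controls and 13.2 ± 1.03 CPM (n = 3) and 13.7 ± 0.0431 CPM (n = 2) in the knockdowns (0.98, SE 0.12, edgeR adjusted p = 0.000326). SH3BP5, the gene of a RAB11 exchange factor, measured 3.72, 4.70 and 4.33 CPM in the controls, 15.3, 12.2 and 14.8 CPM in the NELFE knockdown, and 17.5 and 15.5 CPM in the NELFB knockdown (1.82, SE 0.14, edgeR adjusted p = 4.82e-05). In this pair 97.5% of the exon bases of the antisense lncRNA lie inside SH3BP5.

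Large changes of a partner also occurred without a call for the antisense lncRNA. ID2, an inhibitor of bHLH transcription factors, was upregulated by 1.52 on the log2 scale while ID2-AS1 changed by 0.51 (edgeR adjusted p = 0.164), and NEUROG2, a proneural transcription factor gene, by 0.97 while NEUROG2-AS1 changed by -0.14 (adjusted p = 0.615). These examples were chosen after their values were seen.

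Several widely studied antisense lncRNAs are abundant in these cells. Of a list of 23 genes, 18 were tested in the combined comparison (these include GAS6-AS1 with 134 counts and MIR503HG, which are not among the 357), and 3 were upregulated (16.7%), among them DLX6-AS1 and PSMA3-AS1, while OIP5-AS1 and FOXD2-AS1 were downregulated (11.1%). These shares are near those of all genes (13.3% and 12.7%). OIP5-AS1 (chromosome 15, 41283958 to 41322392, plus strand), also known as Cyrano, had the highest CPM of all 357. It measured 289, 304 and 298 CPM in the control libraries, 236, 235 and 239 CPM in the NELFE knockdown, and 203 and 224 CPM in the NELFB knockdown. All knockdown libraries were below the controls (-0.38, SE 0.07, edgeR adjusted p = 0.00226), and OIP5 at its 3′ end was not called (0.04, SE 0.14, adjusted p = 0.845). The log2 ratio of OIP5-AS1 to OIP5 changed by -0.42, with no overlap between groups (exact two-sided permutation test over 8 libraries, p = 0.0357, unadjusted, which is the smallest p that 5 against 3 libraries allow).

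DLX6-AS1 (chromosome 7, 96955141 to 97014088, minus strand) and the homeobox gene DLX6 lie one within the other. It measured 16.5, 24.9 and 23.2 CPM in the control libraries, 59.9, 56.3 and 56.7 CPM in the NELFE knockdown, and 51.3 and 57.4 CPM in the NELFB knockdown. The groups were far apart (1.39, SE 0.12, edgeR adjusted p = 7.34e-05), while DLX6 was not called (0.34, SE 0.13, adjusted p = 0.0687). Only 4.11% of its exon bases lie inside DLX6, and the log2 ratio of the pair changed by 1.04 (exact two-sided permutation test, p = 0.0357). PSMA3-AS1 measured 58.8 ± 0.998 CPM (n = 3) in controls, 73.7 ± 8.85 CPM (n = 3) in the NELFE knockdown and 74.0 ± 11.03 CPM (n = 2) in the NELFB knockdown (0.33, SE 0.09, edgeR adjusted p = 0.0209), and its call was held in 12 of 15 settings, with log2 fold changes of 0.29 to 0.34 in the other 3. Its log2 ratio to PSMA3 changed by 0.47 (exact two-sided permutation test, p = 0.0357). FOXD2-AS1 measured 12.3 ± 3.06 CPM (n = 3) in controls and 8.48 ± 0.488 CPM (n = 3) and 7.52 ± 0.602 CPM (n = 2) in the knockdowns (-0.61, edgeR adjusted p = 0.0125), with control replicate 1 the highest library at 15.9 CPM.

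FGD5-AS1 was not called. It measured 158, 174 and 177 CPM in the control libraries, 158, 179 and 192 CPM in the NELFE knockdown, and 165 and 176 CPM in the NELFB knockdown (0.04, SE 0.07, edgeR adjusted p = 0.733). Its partner FGD5 had at most 0.0427 CPM in any library and was not tested. THAP9-AS1 (-0.19, edgeR adjusted p = 0.163), NNT-AS1 (-0.10, adjusted p = 0.464), MAPKAPK5-AS1 (-0.07, adjusted p = 0.655) and MCM3AP-AS1 (0.11, adjusted p = 0.545) were not called either. In THAP9-AS1, NNT-AS1, MAPKAPK5-AS1 and MCM3AP-AS1 control replicate 1 was the highest control library. The log2 ratio to the partner changed by -0.10 for THAP9-AS1, -0.28 for NNT-AS1, -0.0073 for MAPKAPK5-AS1 and 0.29 for MCM3AP-AS1, with overlapping groups (exact two-sided permutation tests, unadjusted p = 0.250, 0.0714, 0.929 and 0.107). For FGD5-AS1, with its partner near 0, it changed by 0.05 (exact permutation p = 0.571). Per kilobase of exons, PRR11-AS1, FGD5-AS1, MID1IP1-AS1 and THAP9-AS1 were the highest of all, with 28.8, 28.1, 16.9 and 16.8 CPM. PRR11-AS1 (9.26 ± 0.909 CPM in controls, n = 3) was lowered together with PRR11 (-0.48, SE 0.15, edgeR adjusted p = 0.0353, and -0.44, SE 0.07, edgeR adjusted p = 0.00205), with 1 NELFE library (8.47 CPM) inside the range of the controls for PRR11-AS1. Its call was held in 9 of 15 settings, with log2 fold changes between -0.40 and -0.49 in the other 6, and its log2 ratio to PRR11 changed by -0.018 (exact two-sided permutation test, p = 0.750). All exon bases of PRR11-AS1 and of MID1IP1-AS1 are shared with exons of another gene in GENCODE v44, so their reads rest on the earlier gene models used for counting.

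The knockdowns were then compared to each other. Of the 357 antisense lncRNAs, 2 were higher upon NELFE than upon NELFB knockdown and 1 was lower (0.560% and 0.280%, compared to 0.237% and 0.0771% of all genes; edgeR, adjusted p under 0.05). An unadjusted p under 0.05 was reached by 11 of the 357, compared to 813 of the 16367 genes of the combined comparison.

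MID1IP1-AS1 (chromosome X, 38801568 to 38803883, minus strand) lies inside MID1IP1, the gene of an activator of acetyl-CoA carboxylase. It measured 6.49, 5.89 and 6.65 CPM in the control libraries, 4.78, 4.13 and 4.28 CPM in the NELFE knockdown, and 0.124 and 0.0427 CPM in the NELFB knockdown. The NELFB libraries held 3 and 1 reads, so the level in the NELFB knockdown was at least 50.2-fold below that of the controls, taking 3 reads per library as the floor. The difference between the knockdowns was 5.62 on the log2 scale (SE 0.34, edgeR adjusted p = 1.03e-05). MID1IP1 behaved alike, with 194, 173 and 185 CPM in the controls, 99.7, 94.0 and 97.4 CPM in the NELFE knockdown, and 1.70 and 1.45 CPM in the NELFB knockdown (5.94, SE 0.13, edgeR adjusted p = 2.71e-09).

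PPFIA2-AS1 (chromosome 12, 81270669 to 81312422, plus strand) is likewise embedded, in the liprin gene PPFIA2. It measured 6.37, 3.28 and 4.12 CPM in the control libraries, 3.78, 4.34 and 4.56 CPM in the NELFE knockdown, and 0.332 and 0.299 CPM in the NELFB knockdown (3.72, SE 0.38, edgeR adjusted p = 0.00104). PPFIA2 measured 88.8, 94.0 and 84.1 CPM, then 102, 109 and 86.5 CPM, and 9.75 and 8.89 CPM in the same groups (3.41, SE 0.13, edgeR adjusted p = 1.80e-07). For MID1IP1-AS1 and PPFIA2-AS1 all exon bases lie inside the partner, and without strand the reads of partner and antisense lncRNA cannot be told apart there.

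DLGAP1-AS1, inside the postsynaptic scaffold gene DLGAP1, differed the other way. It measured 0.961, 0.709 and 0.832 CPM in the control libraries, 1.08, 1.33 and 1.44 CPM in the NELFE knockdown, and 3.19 and 3.08 CPM in the NELFB knockdown (-1.29, SE 0.22, edgeR adjusted p = 0.0480). DLGAP1 did not follow (-0.12, SE 0.18, adjusted p = 0.985). DLGAP1-AS1 was among the antisense lncRNAs with few control reads, for which the count threshold favours high values in the knockdowns. The call for DLGAP1-AS1 was held in 7 of 14 settings and was lost without any 1 of 7 libraries, all except control replicate 1, while the log2 difference stayed between -1.17 and -1.38. The neighbouring DLGAP1-AS2, named after its values were seen, differed by -0.91 (adjusted p = 0.288).

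**Figure D4:**
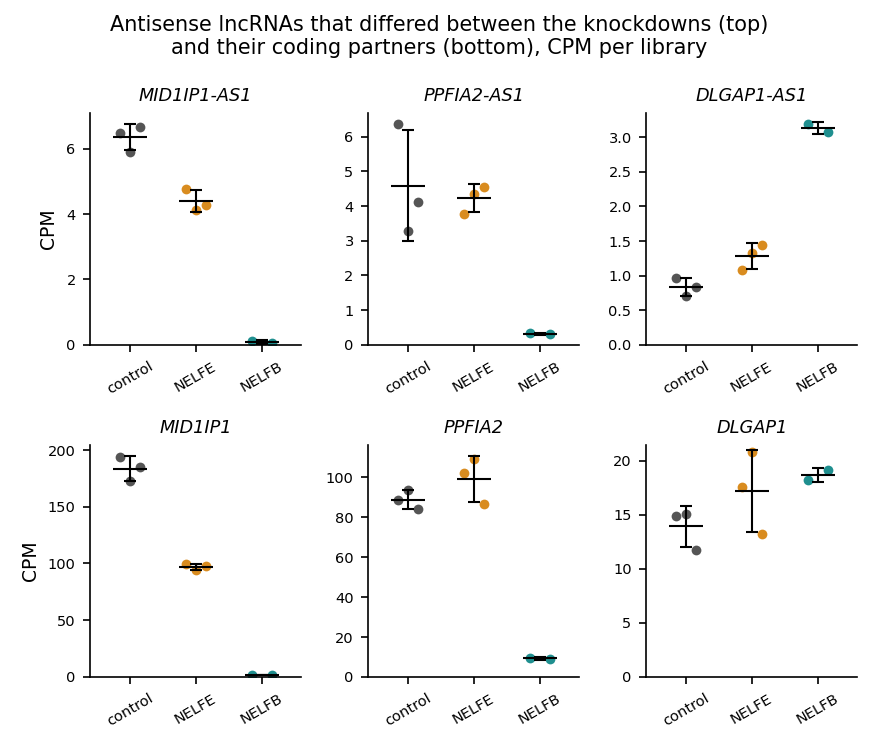
CPM per library (points), with the mean and SD as bars, for the 3 antisense lncRNAs that differed between the knockdowns (top row) and their partners (bottom row), in control (n = 3), NELFE (n = 3) and NELFB (n = 2) libraries. MID1IP1-AS1 and PPFIA2-AS1 drop to 0.0836 and 0.315 CPM in the NELFB knockdown together with their partners, while DLGAP1-AS1 reaches 3.14 CPM.

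Because these differences separate the guide RNAs, both strands were searched for matches to either guide RNA next to an NGG PAM within 500 bases of annotated starts. The NELFB guide RNA matched at MID1IP1-AS1 over the 11 bases next to the PAM, 175 bases upstream of its start (minus strand, chrX:38804058-38804076). A match of at least 11 bases was found at 0.255% of all tested genes and at no other antisense lncRNA. At UBAC2-AS1, named after its values were seen, 10 bases matched, 118 bases upstream of the start (minus strand, chr13:99200875-99200893). Matches of at least 10 bases were found at 0.560% of the antisense lncRNAs and 0.576% of all tested genes. PPFIA2-AS1 and DLGAP1-AS1, which also differed between the knockdowns, had no match of 9 or more bases to either guide RNA. Matches at the starts of the partners are not given here. Guide RNA and sites (with the PAM) are printed with the matched bases in capitals, to show how far the match extends.
NELFB guide RNA: gccgagctGGAGGGCGCCG
MID1IP1-AS1 site: gggctgagGGAGGGCGCCGggg
UBAC2-AS1 site: ggagccccaGAGGGCGCCGggg
UBAC2-AS1 was not called in the NELFB knockdown (0.28, SE 0.25, edgeR adjusted p = 0.463), while UBAC2 was lowered (-0.57, SE 0.10, edgeR adjusted p = 0.00446). The NELFE guide RNA had no match of 9 or more bases at any antisense lncRNA. Binding of dCas9 at these sites was not measured.

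Genes of RNA decay and pausing were counted as well. Of 19 genes of the nuclear exosome and its adaptors, 4 were downregulated in the combined comparison (21.1%, compared to 12.7% of all genes), namely EXOSC8 (-0.52, edgeR adjusted p = 0.00255), ZCCHC8 (-0.33, adjusted p = 0.0211), EXOSC2 (-0.29, adjusted p = 0.0271) and EXOSC10 (-0.26, adjusted p = 0.0219). The nuclear poly(A)-binding protein gene PABPN1 was the 1 upregulated gene of this list (5.26%, compared to 13.3% of all genes), with a log2 fold change of 0.32 (edgeR adjusted p = 0.00568). Of the 6 NELF and DSIF subunits, 1 was upregulated and 1 downregulated in the combined comparison. These are 16.7% each, compared to 13.3% and 12.7% of all genes. The targeted NELFE (-0.97, edgeR adjusted p = 0.602) and NELFB (-0.93, adjusted p = 0.556) count as not called there. Each was strongly lowered in its own knockdown only, and the combined comparison can miss such a change. The 16.7% downregulated therefore leaves out both targets. Of the subunits that were not targeted, NELFA was lowered from 51.3 ± 2.28 CPM (n = 3) to 38.7 ± 1.68 CPM (n = 3) and 42.0 ± 3.49 CPM (n = 2) (-0.36, edgeR adjusted p = 0.00563), and SUPT5H rose (0.27, adjusted p = 0.0186). NELFCD (0.17, edgeR adjusted p = 0.0748) and SUPT4H1 (0.19, adjusted p = 0.155) were not called. In the NELFE knockdown alone, NELFB changed by -0.24 (edgeR adjusted p = 0.0481). Whether these changes play a part in the levels of antisense lncRNAs was not tested.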

How the data were processed

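Per the labels and the methods of the study, single-end reads of 65 bases from TruSeq RNA LT libraries were checked with FastQC 0.11.6 and aligned with STAR 2.5.4a to GRCh38. The authors deposited raw counts per gene of Gencode v24, without strand and without normalization, for 8 libraries. The methods call the knockdown replicates independent, while for the control nothing says so, and p-values measure the spread between these libraries. Ensembl identifiers were matched to GENCODE v44 for symbols, types and gene models (97.4% of genes with reads matched). Arrangements and exon lengths therefore rest on other models than the counts.

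Testing used the robust quasi-likelihood fit of edgeR 4.0.16 under R 4.3.3, after filterByExpr and TMM, and p-values were adjusted over all genes by the Benjamini-Hochberg method, with a threshold of 0.05. A 3-group model gave each knockdown and their difference, and a 2-group model the combined comparison. Log2 ratios to the partner used a pseudocount of 0.5 CPM and an exact permutation test (56 ways), for 33 named pairs, of which only those not chosen by their calls are given a p. The floor of 3 reads covers counting error only. Alternatives were DESeq2 1.42.0, other filters and size factors, a replicate block, leaving out libraries, and subsets of genes.

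Named genes are the largest non-overlapping changes (average log2 CPM of 0 or more), pairs changed in opposite or the same directions, the largest differences between knockdowns, the highest levels per kilobase, and widely studied antisense lncRNAs. The antisense lncRNAs, lists and tests were chosen with earlier results of these data known. The class of overlapping 5′ ends was added when the gene models were read. The single values of a few genes that met these rules are not reported here.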

Additional observations from a re-analysis of the deposited data

Results flagged for a closer look

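The direct test between the knockdowns (edgeR, adjusted p under 0.05) was passed by 3 antisense lncRNAs and 4 partners, given as the log2 difference of NELFE minus NELFB knockdown. MID1IP1-AS1 differed by 5.62 and MID1IP1 by 5.94. PPFIA2-AS1 differed by 3.72 and PPFIA2 by 3.41. UBAC2 differed by 0.73, without a call for UBAC2-AS1 (-0.19). DLGAP1-AS1 differed by -1.29 and LPP, a gene of focal adhesions, by -0.97; LPP-AS2 was not called (-0.83, adjusted p = 0.833). No group held the 4 libraries needed to look for single outlying values.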

How the results depend on the processing

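Of 816 alternative values for the named genes, 449 fold changes kept their direction and their side of the threshold, 289 ratios to the partner stayed within the spread, 30 fold changes lost their call, 41 ratios moved by more than the spread and 7 turned sign. Leaving out libraries gave between 47 and 118 upregulated and between 10 and 22 downregulated antisense lncRNAs in the combined comparison, between 25 and 92 and between 1 and 15 for NELFE, between 15 and 124 and between 2 and 22 for NELFB, and between 2 and 3 and between 0 and 3 between the knockdowns. The ranges include the fit without both control replicate 1 and NELFE knockdown replicate 3, a setting chosen after seeing the data. Of the 77 upregulated, 42 were called without each single library in turn, as were 7 of the 20 downregulated. With DESeq2, 75 and 19 of them were called again.

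Between groups, the deviations of libraries with the same replicate number had correlations between -0.021 and 0.451. Those of libraries with different numbers had correlations between -0.377 and 0.231. Whether the replicate numbers pair the libraries was not tested. With a replicate block the combined counts were 85 and 23, those for NELFE 74 and 22, those for NELFB 78 and 17, and between the knockdowns 2 and 3. The shares of all genes called with the block were 17.1% and 17.3%, 14.3% and 14.0%, and 14.8% and 13.7% in the first 3 comparisons. Between the knockdowns they were 0.409% and 0.748%, above the 0.237% and 0.0771% of the main fit. Without a filter on low counts, 14 were downregulated in the NELFE knockdown and 2 were lower in NELFE than in NELFB. The shares of all genes in that setting were 4.61% and 0.281%. With at least 10 counts in every library, none (0) was higher in NELFE than in NELFB, since MID1IP1-AS1 and PPFIA2-AS1 were then not tested. Fewer genes were tested where no exon base lies inside another gene (5 and 2 called of 18) or inside the partner (7 and 3 called of 30), subsets added after seeing the data. These are 27.8% up and 11.1% down of the 18, and 23.3% and 10.0% of the 30. All genes gave 13.3% and 12.7%. The sign changed for 3 antisense lncRNAs that were not called in any setting, and the cause was not tested. When libraries were left out, the log2 fold change ranged from -0.051 to 0.072 for FGD5-AS1, from -0.14 to 0.046 for MAPKAPK5-AS1 and from -0.17 to 0.018 for NNT-AS1, with the sign turned without control replicate 1 in each and, for FGD5-AS1, also without NELFE knockdown replicate 3.

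Of the 357, 28 had fewer than 60 reads over the control libraries. The NELFB group has 2 libraries, and its count of upregulated genes fell to 15 without NELFB knockdown replicate 1, with 2.17% of all genes.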
